A study of Chlorocebus aethiops with 24 samples.

Results

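The genes of glutathione chemistry and antioxidant defence were followed across hippocampal arrays of male vervet monkeys that differed in prenatal alcohol exposure and in age. Members were all probe sets to which the platform annotation gives a single symbol belonging to the glutathione synthesis, breakdown, peroxidase and transferase families, the peroxiredoxins, thioredoxins and superoxide dismutases, catalase, the quinone reductases and haem oxygenases, or the NRF factors and KEAP1. This gave 47 probe sets of 42 genes, out of 11512 probe sets in all and 8730 with a single symbol. Under this annotation GCLC, HMOX2, MGST3, NFE2L2 and PRDX3 had 2 probe sets each. GSS, GSR, GPX1, GPX3, CAT, SOD3, PRDX1, PRDX5, PRDX6, TXN, TXN2, TXNRD1, HMOX1 and NQO1 were not among these 47 and were not analysed here.

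Whole left hippocampus of 22 animals was hybridised to the Affymetrix Rhesus Macaque array, with 1 array per animal. FASD animals were sons of dams that voluntarily drank ethanol in late pregnancy, and control animals were sons of dams given sucrose of equal calories. There were 6 control and 5 FASD animals at 5 months of age and 6 control and 5 FASD animals at 2 years. The labels do not say which animals shared a dam or litter, so the p values measure the spread between these animals only. Values are log2 expression intensities, and a difference of 1 on this scale is a factor of 2. The vervet samples were read with macaque probes, so the level of a probe set was compared between animals and never with that of another probe set.

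Glutathione is a small thiol peptide that is made from glutamate, cysteine and glycine, is used by peroxidases to reduce peroxides and by transferases to tag reactive compounds, and is broken down again through gamma-glutamyl intermediates. Peroxiredoxins and thioredoxins form a parallel thiol system, and superoxide dismutases supply the peroxide that both systems remove. Many of these genes are switched on by NRF2, encoded by NFE2L2, which KEAP1 marks for degradation in unstressed cells, and in brain much of the glutathione is made in astrocytes and handed to neurons as precursors.

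Control animal 2 at 2 years was the highest or lowest of its group in 55.1% of all 11512 probe sets and in 22 of the 47 antioxidant ones, FASD animal 2 at 5 months was so in 62.4% of all and in 30 of the 47, and FASD animal 2 at 2 years in 56.1% of all and in 29 of the 47. Correlated over all probe sets with each of the others, FASD animal 2 at 5 months had the lowest mean r, 0.979, and FASD animal 2 at 2 years the next, 0.984. The mean of 4 neuronal markers (NEUROD6, NRGN, PROX1 and SYT1), which are not particular to pyramidal cells, was 10.22 in control animal 2 at 2 years. It was 10.43 to 10.57 in the other controls of that age. It was 9.96 in FASD animal 2 at 2 years and 10.38 to 10.55 in the other FASD animals of that age, and 10.06 in FASD animal 2 at 5 months, where the others had 10.45 to 10.57. The part of these markers in the results below was not tested. Labels disagree for control animal 6 at 5 months, whose source name alone gives 2 years, and it was kept at 5 months. A further FASD array at 5 months, not used here, has the number 2 in its title, like FASD animal 2 of that age, and 4 in its source name, so the animal numbers of that group are uncertain. Results that turn on these arrays are given with and without them.

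Prenatal alcohol was accompanied by lower GGCT and, with less certainty, by higher NFE2L3, and no other antioxidant gene passed an unadjusted p under 0.05 over both ages in limma. GGCT, the cyclotransferase that takes apart gamma-glutamyl peptides in glutathione breakdown, was lower in FASD animals by 0.24 on the log2 scale (difference -0.24, standard error 0.05, 95% interval -0.34 to -0.14). NFE2L3, a transcription factor of the NRF family, was higher in FASD animals by 0.16 (standard error 0.07, 95% interval 0.02 to 0.29). The 2 probe sets are 4.26% of the 47, against 8.44% of all 11512 that passed the same threshold. None of the 47 passed an adjusted p under 0.05 in limma, and their lowest adjusted p was 0.579. A two-sided exact permutation test rearranged the exposures within each age, with 213444 arrangements. It was run on the 47 only, so its count has no share over all probe sets beside it and is no result about the 47. In this test 4 had an unadjusted p under 0.05, which were GGCT (exact p = 2.81e-05), TXNDC12 (exact p = 0.0249), NFE2L3 (exact p = 0.0321) and GSTM4 (exact p = 0.0391). GGCT was known from earlier results of these data, so its p values are no independent support. Without control animal 2 at 2 years 10 of the 47 passed an unadjusted p under 0.05, against 14.6% of all probe sets in that fit. Without FASD animal 6 at 5 months 5 did, against 9.61% of all. Without control animal 6 at 2 years, control animal 6 at 5 months or FASD animal 6 at 2 years 4 did, against 6.58%, 9.16% and 9.34%. Without FASD animals 2 or 4 at 2 years, or FASD animal 4 at 5 months, only 1 of the 47 passed, against 7.24%, 8.03% and 9.05%. Without FASD animal 2 and control animal 6 at 5 months together 4 passed, against 8.2%.

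The 47 differences for alcohol lay evenly about 0. FASD animals had the lower mean in 24 of the 47 probe sets, or 51.1%, against 53.2% of all probe sets. The median difference was -0.000471 on the log2 scale, against -0.00693 over all probe sets, and the differences ran from -0.24 to 0.16. The 95% interval of the alcohol difference lay within 0.25 log2 units of 0 for 31 of the 47 and within 0.5 for 46. The exception was the first probe set of MGST3, a microsomal transferase, with an interval of -0.52 to 0.05. GPX8, a peroxidase of the endoplasmic reticulum, had the largest residual SD of the 47, at 0.56, and an interval of -0.50 to 0.41. The median residual SD was 0.173 over the 47 and 0.158 over all probe sets.

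**Figure D1:**
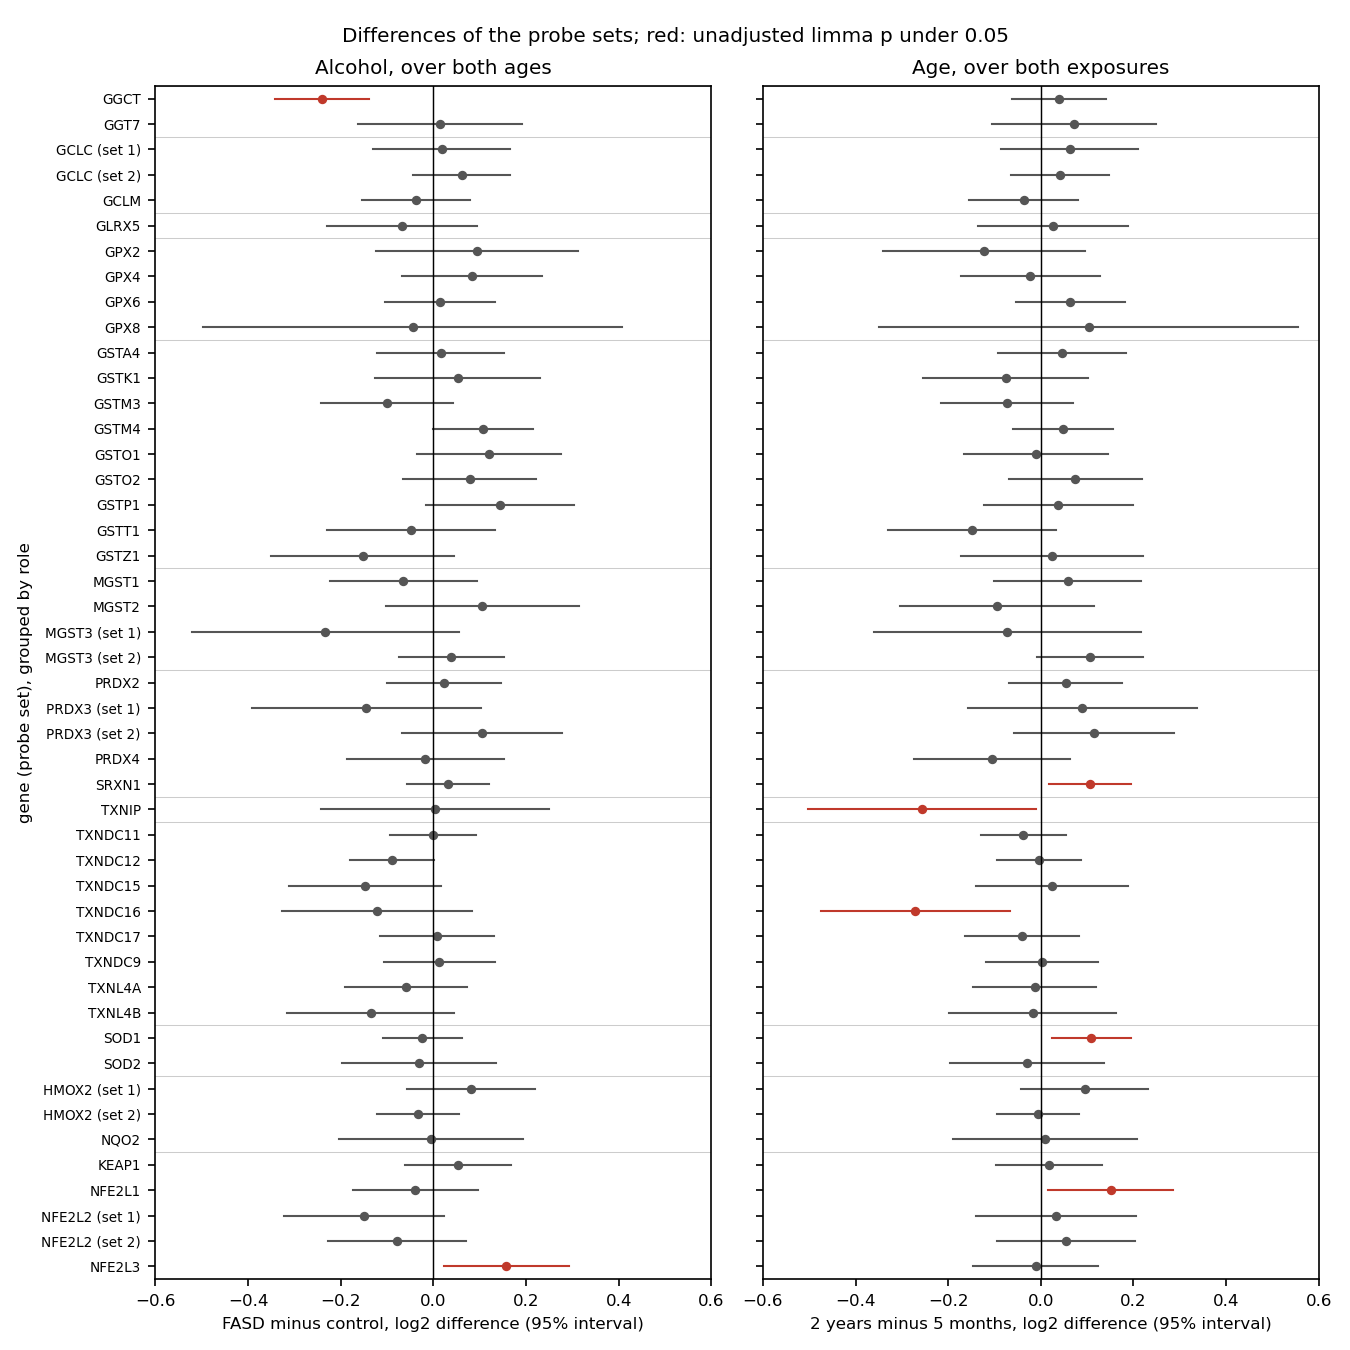
Log2 difference of each of the 47 probe sets with its 95% interval, for alcohol (FASD minus control, left) and age (2 years minus 5 months, right), grouped by role. Red marks an unadjusted limma p under 0.05, reached by GGCT and NFE2L3 for alcohol and by TXNDC16, TXNIP, SOD1, SRXN1 and NFE2L1 for age.

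GGCT had the lowest unadjusted p of all 11512 probe sets for alcohol in limma, which was 6.60e-05 (adjusted p = 0.579 in limma). The paper had already reported GGCT among its lowest p values for alcohol in these same data. The rank and p values of GGCT here are therefore no independent support. The paper also measured GGCT by qRT-PCR and reported a fold change in concordance with the array. Those qRT-PCR values were not examined here. By an analysis of variance without moderation, after quantile normalisation or with the replicate number as a block it ranked 2 by unadjusted p, and it ranked 1 to 3 when each animal was left out. At 5 months its log2 expression in FASD animals 2 to 6 was 9.19, 9.44, 9.25, 9.39 and 9.62, and control animals had a lowest value of 9.56, a median of 9.68 and a highest value of 9.77. At 2 years FASD animals 1, 2, 3, 4 and 6 had 9.48, 9.33, 9.57, 9.47 and 9.50, and control animals had 9.59, 9.66 and 9.76 as lowest, median and highest values. FASD animal 6 at 5 months was the only FASD animal inside the control range of its age, and at 2 years the groups did not overlap. GGCT was 1 of the 47 probe sets whose groups did not overlap at 2 years, against 0.313% of all probe sets, and none of the 47 was without overlap at 5 months, against 0.443%. The difference at 2 years minus that at 5 months was 0.10 (standard error 0.10, 95% interval -0.10 to 0.30), and its unadjusted p was 0.319 in limma. Leaving out FASD animal 6 at 5 months gave the lowest adjusted p of any single omission, at 0.0658 in limma. GGT7, of the gamma-glutamyl transferase family, had an alcohol difference of 0.02 (95% interval -0.16 to 0.19).

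**Figure D2:**
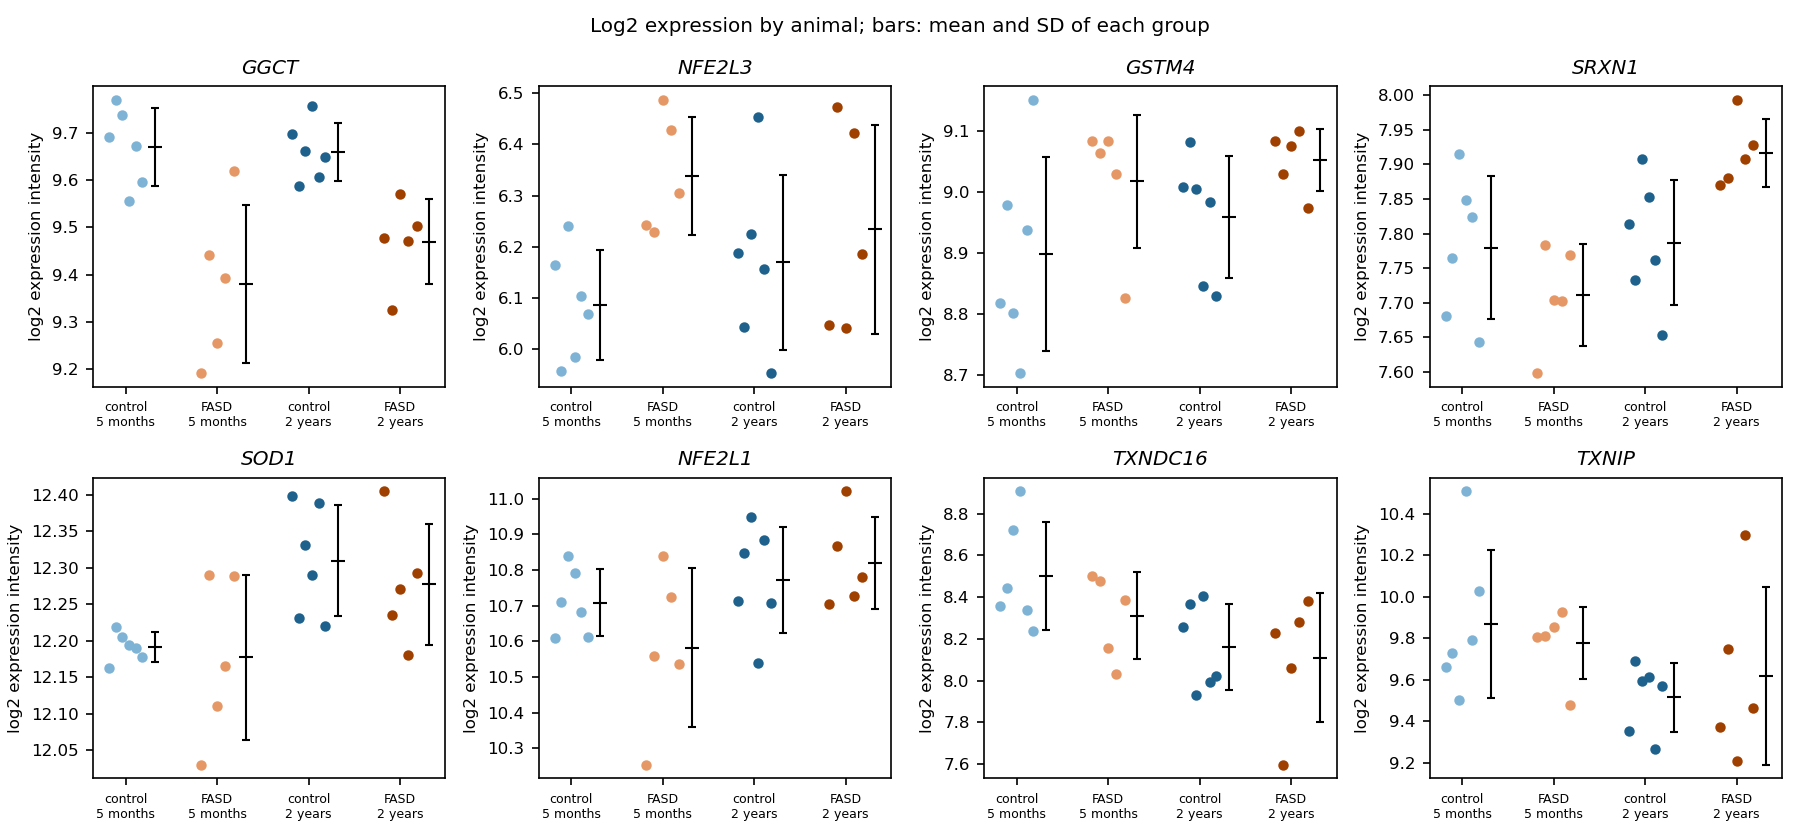
Log2 expression intensity of GGCT, NFE2L3, GSTM4, SRXN1, SOD1, NFE2L1, TXNDC16 and TXNIP in each animal in the 4 groups. Each dot is 1 animal, and error bars show group mean and SD (n = 5 or 6). GGCT of the FASD animals at 2 years lies between 9.33 and 9.57, below every control of that age, and SRXN1 of the FASD animals at 2 years lies above every FASD animal at 5 months.

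In the NRF group, NFE2L3 had its larger alcohol difference at 5 months. FASD animals 2 to 6 had 6.24, 6.23, 6.49, 6.43 and 6.31, and control animals had a lowest value of 5.96, a median of 6.09 and a highest of 6.24. At 2 years FASD animals 1, 2, 3, 4 and 6 had 6.05, 6.47, 6.04, 6.42 and 6.19, and control animals had 5.95, 6.17 and 6.45. In the younger animals 4 of 5 with FASD exceeded all controls, and in the older ones the values were mixed, with 1 FASD animal above all controls. The difference was 0.25 at 5 months (95% interval 0.06 to 0.44) and 0.06 at 2 years (95% interval -0.13 to 0.26), and the interaction had an unadjusted p of 0.165 in limma. Over both ages the unadjusted p for alcohol was 0.0241 (adjusted p = 0.579 in limma). It passed an unadjusted p under 0.05 in all single omissions other than those of FASD animals 2 and 4 at 2 years and FASD animal 4 at 5 months. The probe set of NFE2L3 is of a kind that can match several transcripts.

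NFE2L2, which encodes NRF2, had alcohol differences of -0.15 (95% interval -0.32 to 0.02) in its first probe set and -0.08 (95% interval -0.23 to 0.07) in its second. KEAP1, its inhibitor, had one of 0.05 (95% interval -0.06 to 0.17), and NFE2L1, which drives proteasome genes, had one of -0.04 (95% interval -0.17 to 0.10).

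The enzymes that make glutathione had small alcohol differences. GCLC, the catalytic subunit of glutamate-cysteine ligase, had 0.02 (95% interval -0.13 to 0.17) in its first probe set and 0.06 (95% interval -0.04 to 0.17) in its second. GCLM, the modifier subunit of that ligase, had -0.04 (95% interval -0.15 to 0.08). The first GCLC probe set had a difference of 0.16 at 5 months and -0.12 at 2 years, and this interaction of -0.28 (95% interval -0.58 to 0.01) had an unadjusted p of 0.0592 in limma. Its 5 FASD animals at 5 months had 9.39, 9.11, 9.14, 9.07 and 8.93 against control values of 8.71, 8.96 and 9.23 as lowest, median and highest, and at 2 years the FASD animals had 8.98, 8.96, 9.27, 9.22 and 8.82 against 9.02, 9.13 and 9.40. At 2 years 3 of 5 FASD animals were below every control, and at 5 months 1 of 5 was above every control. The second GCLC probe set, whose deviations followed those of the first, had an interaction of -0.06 (95% interval -0.27 to 0.15).

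Soluble transferases, which conjugate glutathione to reactive compounds, had a median alcohol difference of 0.05 over 9 genes, of which 6 were higher and 3 lower in FASD animals. None of the 9 passed an unadjusted p under 0.05 in limma. GSTM4, a mu-class enzyme, was nearest to it with a difference of 0.11 (95% interval -0.0018 to 0.21, unadjusted p = 0.0536 and adjusted p = 0.608 in limma). Its FASD animals at 5 months had 9.08, 9.06, 9.08, 9.03 and 8.83 against control values of 8.70, 8.88 and 9.15 as lowest, median and highest. At 2 years they had 9.08, 9.03, 9.08, 9.10 and 8.97 against 8.83, 8.99 and 9.08. At each age 4 of 5 FASD animals were above the control median, the exception being FASD animal 6 of that age, and the groups overlapped. It passed an unadjusted p under 0.05 in 4 of 8 other settings, and its exact p in the permutation test was 0.0391. GSTP1, the pi-class enzyme, had a difference of 0.14 (95% interval -0.02 to 0.30). GSTM3, a mu-class enzyme of brain and testis, had -0.10 (95% interval -0.24 to 0.04), and GSTT1, of the theta class, had -0.05 (95% interval -0.23 to 0.13). The mu-class genes are close in sequence, and how far their probes share transcripts was not tested.

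The peroxidases showed no alcohol difference past an unadjusted p under 0.05. GPX4, which reduces lipid peroxides in membranes, had 0.08 (95% interval -0.07 to 0.23), and GPX2, an epithelial peroxidase, had 0.09 (95% interval -0.12 to 0.31). FASD animal 2 at 5 months had the highest GPX4 value of its group, at 11.76, where the other FASD animals of that age had 11.08 to 11.34. Among the microsomal transferases, MGST1 had -0.06 (95% interval -0.22 to 0.09), and the probe sets of MGST3, which acts on lipid peroxides and leukotrienes, had -0.23 (95% interval -0.52 to 0.05) and 0.04 (95% interval -0.08 to 0.15).

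Among the thiol peroxidases and the thioredoxin proteins no alcohol difference over both ages passed an unadjusted p under 0.05 in limma. PRDX2, of the cytosol, had an alcohol difference of 0.02 (95% interval -0.10 to 0.15), and PRDX4, of the endoplasmic reticulum, had -0.02 (95% interval -0.18 to 0.15). PRDX3, of mitochondria, had -0.15 (95% interval -0.39 to 0.10) in its first probe set and 0.10 (95% interval -0.07 to 0.28) in its second. TXNIP, which binds and inhibits thioredoxin, had 0.00 (95% interval -0.24 to 0.25). Of the 8 thioredoxin-like and thioredoxin-domain proteins 6 were lower in FASD animals, with a median difference of -0.07, and none passed an unadjusted p under 0.05 in limma. TXNDC12, an oxidoreductase of the endoplasmic reticulum, was nearest to it, at -0.09 (95% interval -0.18 to 0.0020, unadjusted p = 0.0549 and adjusted p = 0.608 in limma). It passed in 2 of 7 other settings, and its exact p in the permutation test was 0.0249. This group includes TXNL4A and TXNL4B, which are splicing proteins and share only the thioredoxin fold.

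SOD1, the cytosolic superoxide dismutase, had an alcohol difference of -0.02 (95% interval -0.11 to 0.06) and SOD2, the mitochondrial enzyme, one of -0.03 (95% interval -0.20 to 0.14). HMOX2, the haem oxygenase that neurons express without induction, had 0.08 (95% interval -0.06 to 0.22) and -0.03 (95% interval -0.12 to 0.05) in its probe sets. GLRX5, a mitochondrial glutaredoxin of iron-sulfur cluster assembly, had -0.07 (95% interval -0.23 to 0.09).

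Age was accompanied by lower TXNDC16 and TXNIP and by higher SOD1, SRXN1 and NFE2L1 at 2 years, at an unadjusted p under 0.05. These 5 are 10.6% of the 47 probe sets, against 9.57% of all probe sets at the same threshold. None of the 47 passed an adjusted p under 0.05 in limma, against 0.139% of all probe sets, and the lowest adjusted p of the 47 was 0.350. The median age difference was 0.02 over the 47 and 0.00282 over all probe sets. Without FASD animal 2 at 2 years 7 of the 47 passed an unadjusted p under 0.05, against 10.5% of all probe sets in that fit. Without FASD animal 4 or control animal 6 at 2 years, or control animal 3 at 5 months, 6 did, against 10.4%, 10.6% and 9.83%. Without FASD animal 3 at 2 years 3 did, against 8.28%. Without FASD animal 2 and control animal 6 at 5 months together 2 did, against 8.03%.

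TXNDC16, a thioredoxin-domain protein of the endoplasmic reticulum, had the largest age difference, at -0.27 (standard error 0.10, 95% interval -0.48 to -0.07, unadjusted p = 0.0120 and adjusted p = 0.350 in limma). Control animals had a lowest value of 8.24, a median of 8.40 and a highest of 8.91 at 5 months, and 7.93, 8.14 and 8.40 at 2 years. FASD animals had 8.50, 8.48, 8.16, 8.03 and 8.38 at 5 months, and 8.23, 7.60, 8.06, 8.28 and 8.38 at 2 years. In controls 3 of 6 older animals were below every younger one, and in FASD animals 1 of 5 was. The difference was -0.34 in controls and -0.20 in FASD animals, and the interaction had an unadjusted p of 0.491 in limma.

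SOD1 was higher at 2 years by 0.11 (standard error 0.04, 95% interval 0.02 to 0.19, unadjusted p = 0.0146 and adjusted p = 0.370 in limma). Control animals at 5 months lay closely together, with a lowest value of 12.16, a median of 12.19 and a highest of 12.22, and those at 2 years had 12.22, 12.31 and 12.40. FASD animals had 12.03, 12.29, 12.11, 12.17 and 12.29 at 5 months and 12.40, 12.24, 12.27, 12.18 and 12.29 at 2 years. The control groups did not overlap, although the highest younger and the lowest older animal agreed to 2 decimals, and the FASD groups overlapped, with 2 of 5 older animals above every younger one. SOD1 was 1 of the 47 without overlap between the ages in controls, against 0.434% of all probe sets. Of the 47, 4 passed an unadjusted p under 0.05 for age in controls, against 5.55% of all probe sets, and they were SOD1, TXNDC16, TXNIP and the first probe set of GCLC. That count was 8 without control animal 2 at 2 years, against 11.7% of all probe sets in that fit. It was 2 without control animals 3 or 4 at 2 years, control animal 5 at 5 months or FASD animal 5 at 5 months, against 4.84% to 5.74% of all. It was 1 without control animal 1 at 2 years or control animals 4 or 6 at 5 months, against 4.75% to 5.37%.

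SRXN1, the sulfiredoxin that repairs over-oxidised peroxiredoxins, passed an unadjusted p under 0.05 for age in FASD animals and not in controls, and the difference between the exposures was tested as the interaction. FASD animals had 7.60, 7.78, 7.70, 7.70 and 7.77 at 5 months and 7.87, 7.88, 7.99, 7.91 and 7.93 at 2 years. Control animals had a lowest value of 7.64, a median of 7.79 and a highest of 7.92 at 5 months, and 7.65, 7.79 and 7.91 at 2 years. Every FASD animal at 2 years was above every FASD animal at 5 months, while the control groups covered nearly the same range. The probe set of SRXN1, like that of NFE2L3, is of a kind that can match several transcripts. SRXN1 was 1 of the 47 without overlap between the ages in FASD animals, against 1.31% of all probe sets. Its age difference was 0.20 in FASD animals (standard error 0.06, unadjusted p = 0.00368 and adjusted p = 0.591 in limma) and 0.01 in controls (standard error 0.06, unadjusted p = 0.899 and adjusted p = 0.999 in limma). The difference between them, which is the interaction, was 0.20 (standard error 0.09, 95% interval 0.02 to 0.37, unadjusted p = 0.0306 and adjusted p near 1 in limma). SRXN1 was the only 1 of the 47 with an unadjusted p under 0.05 for the interaction, or 2.13%, against 3% of all probe sets. After centring of each array its interaction had an unadjusted limma p of 0.0814, and it exceeded 0.05 without control animal 3 or FASD animal 2 at 5 months, or without either control animal 6 or FASD animal 3 from the older animals. The count of the 47 for the interaction was 6 without control animal 2 at 2 years, against 6.56% of all probe sets in that fit. It was 3 without control animal 1 at 5 months, against 4.52%. It was 2 without FASD animals 2 or 4 at 2 years or FASD animal 6 at 5 months, against 4.32%, 3.05% and 3.35%. It was 0 without control animal 3 or FASD animal 2 at 5 months, against 2.41% and 2.61%.

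NFE2L1 was higher at 2 years by 0.15 (standard error 0.06, 95% interval 0.02 to 0.29, unadjusted p = 0.0293 and adjusted p = 0.445 in limma). FASD animals had 10.25, 10.56, 10.84, 10.73 and 10.54 at 5 months and 10.70, 10.87, 11.02, 10.73 and 10.78 at 2 years, and control animals had 10.61, 10.70 and 10.84 as lowest, median and highest at 5 months and 10.54, 10.78 and 10.95 at 2 years. The lowest of all was FASD animal 2 at 5 months, and without it, FASD animal 3 or control animal 3 at 2 years the unadjusted p exceeded 0.05. NFE2L1 and SRXN1 were the 2 of the 47 with an unadjusted p under 0.05 for age in FASD animals, against 6.99% of all probe sets. That count was 4 without FASD animal 4 at 2 years, against 7.57% of all probe sets in that fit. It was 1 without FASD animal 3 at 2 years or FASD animal 2 at 5 months, against 5.49% and 4.93%.

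TXNIP had an age difference of -0.26 (standard error 0.12, 95% interval -0.50 to -0.01, unadjusted p = 0.0421 and adjusted p = 0.485 in limma). FASD animals had 9.81, 9.81, 9.86, 9.93 and 9.48 at 5 months and 9.38, 9.75, 9.21, 10.30 and 9.46 at 2 years. Control animals had a lowest value of 9.50, a median of 9.76 and a highest of 10.51 at 5 months and 9.27, 9.58 and 9.69 at 2 years. All older controls were below the median of the younger ones, and of the older FASD animals 3 of 5 were below every younger one and animal 4 was above them. The unadjusted p was 0.0621 in an analysis of variance without moderation and above 0.05 in 11 of the 22 fits that each left out 1 animal.

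The remaining age differences stayed within their intervals about 0. GPX2 had -0.12 (95% interval -0.34 to 0.09), GSTT1 had -0.15 (95% interval -0.33 to 0.03), GGT7 had 0.07 (95% interval -0.11 to 0.25), GLRX5 had 0.03 (95% interval -0.14 to 0.19), and the second MGST3 probe set had 0.11 (95% interval -0.01 to 0.22). HMOX2 had 0.09 (95% interval -0.04 to 0.23) in its first probe set and -0.01 (95% interval -0.09 to 0.08) in its second. GGCT itself had an age difference of 0.04 (95% interval -0.06 to 0.14).

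When alcohol was tested within each age, GGCT was the gene found at both. At 5 months GGCT and NFE2L3 passed an unadjusted p under 0.05, against 4.83% of all probe sets. At 2 years GGCT, SRXN1 and TXNDC15 passed, against 6.05% of all probe sets. SRXN1 was higher in FASD animals at 2 years by 0.13 (95% interval 0.0040 to 0.25, unadjusted p = 0.0438 and adjusted p = 0.793 in limma), with 3 of 5 above every control, and TXNDC15, a thioredoxin-domain protein, was lower by 0.26 (difference -0.26, 95% interval -0.49 to -0.03). The count at 5 months was 4 without FASD animal 4 or FASD animal 6 at 5 months, against 7.29% and 5.92% of all probe sets. The count at 2 years was 9 without control animal 2 at 2 years, or 19.1%, against 14.5% of all probe sets in that fit. It was 2 without FASD animal 2 at 2 years, against 5.83%, and 1 without control animals 5 or 6 at 2 years, against 3.98% and 3.43%. The control animals of each age enter these comparisons and those over both ages alike.

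**Figure D3:**
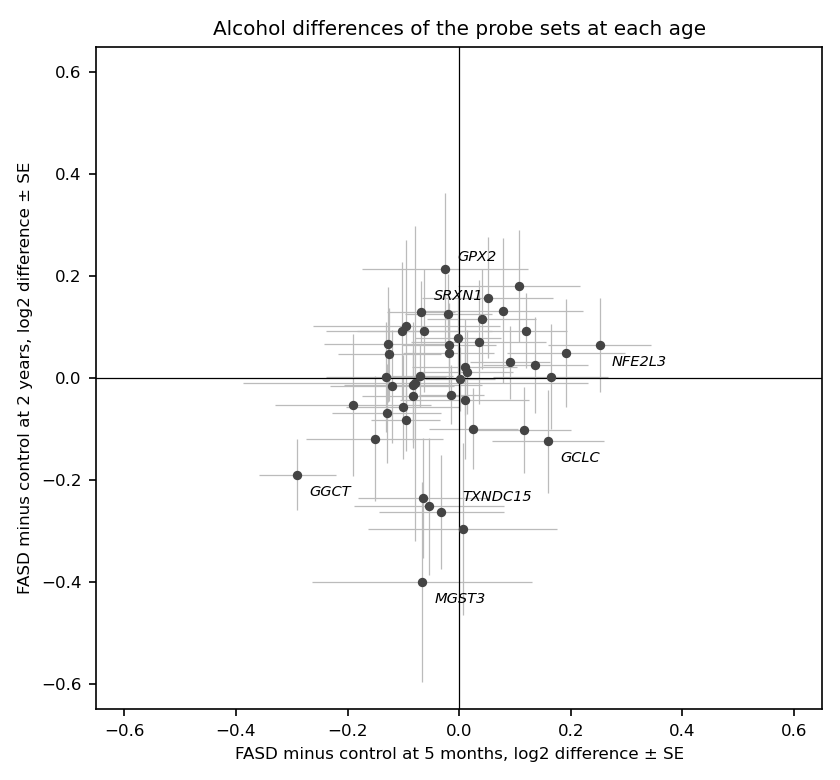
FASD minus control difference of the 47 probe sets at 5 months (horizontal axis) and at 2 years (vertical axis), in log2 units with standard errors as bars. GGCT lies low at both ages (-0.29 and -0.19), NFE2L3 is high at 5 months (0.25), and the lowest point at 2 years is the first MGST3 probe set (-0.40).

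Several alcohol differences were larger without control animal 2 at 2 years. In TXNDC15 it had 9.98, where the other controls at 2 years went up to 10.85 with a median of 10.58 over all 6, and FASD animals had 10.24, 10.13, 10.27, 10.32 and 10.33. In the first PRDX3 probe set it had 9.22 against a group median of 10.17, and FASD animals had 10.04, 9.54, 9.61, 9.74 and 9.85. In the first MGST3 probe set it had 7.49 against a median of 8.51, and FASD animals had 7.92, 7.86, 7.93, 7.93 and 8.24. In each of these it was the lowest of its group and lay below every FASD animal of its age, while in TXNDC15 and PRDX3 each of the other 5 controls lay above all of them.

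Without that animal, 10 of the 47 passed an unadjusted p under 0.05 for alcohol, or 21.3%, against 14.6% of all probe sets in the same fit. They were GGCT, GSTM4, GSTP1, GSTZ1, NFE2L3, TXNDC12, TXNDC15 and the first probe sets of MGST3, NFE2L2 and PRDX3. The alcohol difference was then -0.20 for TXNDC15 (standard error 0.06, unadjusted p = 0.0029 and adjusted p = 0.200 in limma), -0.32 for MGST3 (standard error 0.11), -0.23 for PRDX3 (standard error 0.09), -0.20 for NFE2L2 (standard error 0.07) and 0.18 for GSTP1 (standard error 0.07). None of the 11512 passed an adjusted p under 0.05 in limma. Weights estimated for each array, which gave this animal 0.379, FASD animal 2 at 5 months 0.273 and FASD animal 2 at 2 years 0.413, led to 9 of the 47, or 19.1%, against 14.5% of all probe sets, and all 9 were among the 10. TXNDC15 and GSTZ1, an enzyme of tyrosine breakdown, are named here after their values were seen. The GSTZ1 probe set is also of the kind that can match several transcripts.

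**Figure D4:**
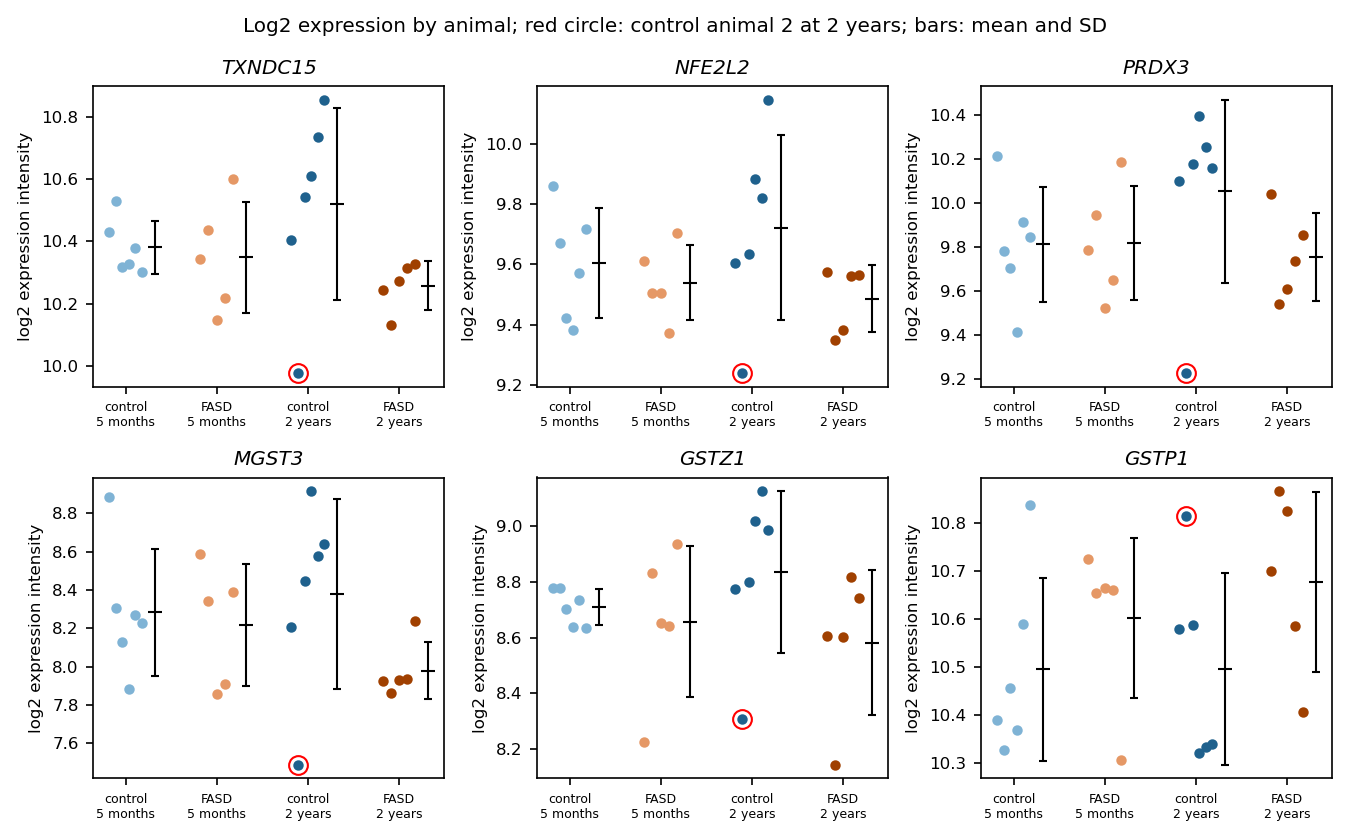
Log2 expression intensity by animal of TXNDC15, the first probe sets of NFE2L2, PRDX3 and MGST3, and GSTZ1 and GSTP1. The red circle marks control animal 2 at 2 years, which is the lowest control of its age except in GSTP1, where it is the highest. Error bars show group mean and SD (n = 5 or 6).

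Where a gene had 2 probe sets, their deviations from the group means were compared over the 22 animals. Pearson's r was 0.72 for GCLC (permutation test, adjusted p = 0.0009 over the 5 genes, raw p = 0.00018) and 0.57 for HMOX2 (permutation test, adjusted p = 0.0133, raw p = 0.00533). It was 0.40 for NFE2L2 (permutation test, adjusted p = 0.110, raw p = 0.0660), -0.11 for MGST3 (permutation test, adjusted p = 0.789, raw p = 0.631) and -0.05 for PRDX3 (permutation test, adjusted p = 0.807, raw p = 0.807). Spearman's rho was 0.67, 0.52, 0.54, -0.04 and -0.07 in the same order, with adjusted permutation p values of 0.0046, 0.0233, 0.0233, 0.873 and 0.873 and raw ones of 0.00092, 0.0140, 0.00982, 0.873 and 0.765. The probe sets of GCLC and HMOX2 thus varied together between animals, and those of MGST3 and PRDX3 did not show such a relation. Values under the latter 2 symbols therefore differ with the probe set read. The paper kept 1 probe set per gene, so under its own annotation the 2 rows of a symbol may stand for different genes. Which annotation is right for these rows was not tested. Without the 2 animals farthest from the median r was 0.69, 0.49, 0.44, -0.02 and -0.07.

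**Figure D5:**
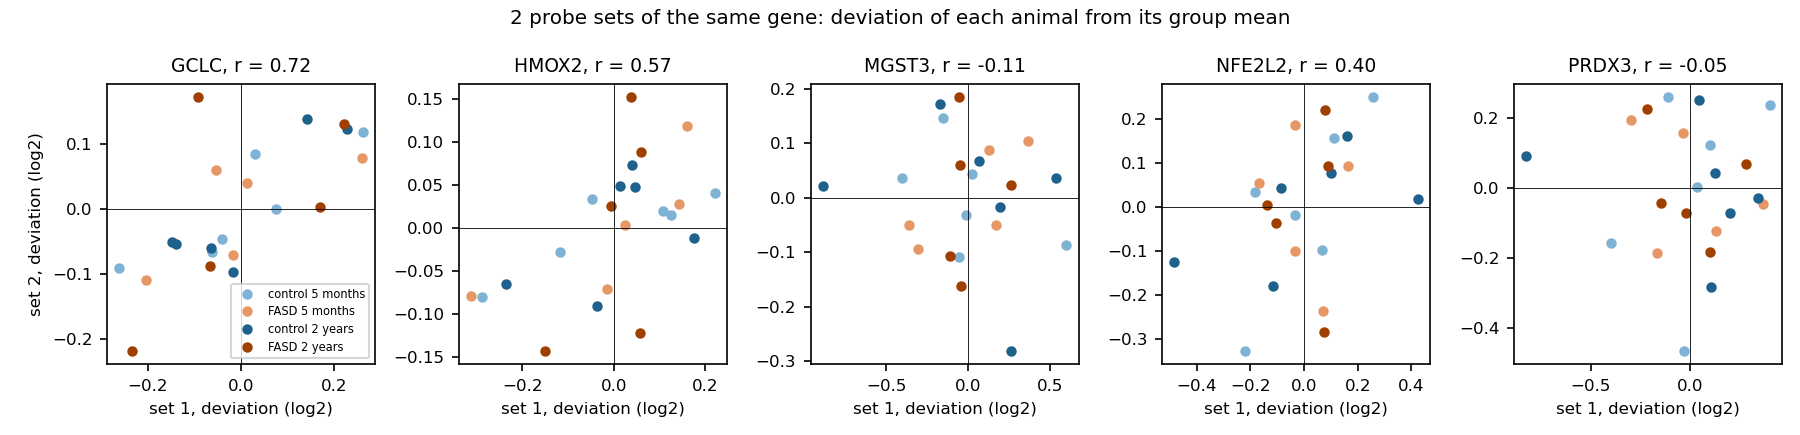
Deviation of each animal from its group mean (log2 units) in the first (horizontal axis) and second (vertical axis) probe set of GCLC, HMOX2, MGST3, NFE2L2 and PRDX3, coloured by group. Points follow a rising line for GCLC (r = 0.72) and scatter without one for MGST3 (r = -0.11) and PRDX3 (r = -0.05).

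Neighbouring genes of thiol, selenium, metal and NRF2 biology outside the rule gave 44 probe sets. For alcohol 1 of the 44, or 2.27%, passed an unadjusted p under 0.05, against 8.44% of all probe sets. This was SELENOW, a selenoprotein, at 0.11 (standard error 0.04, unadjusted p = 0.0155 and adjusted p = 0.579 in limma). The count was 4 without FASD animal 6 at 2 years, against 9.34% of all probe sets in that fit. It was 3 without control animal 3 at 2 years or control animal 6 at 5 months, against 8.22% and 9.16%. It was 2 without control animal 2 or FASD animals 1 or 4 at 2 years or control animals 2, 3 or 4 or FASD animal 2 at 5 months, against 5.99% to 14.6%.

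For age 5 of the 44, or 11.4%, passed, against 9.57% of all probe sets. TFRC, the transferrin receptor for iron uptake, was lower at 2 years by 0.36 (difference -0.36, standard error 0.09, adjusted p = 0.102 in limma), and MT1E, a metallothionein that binds zinc and copper, by 0.40 (difference -0.40, standard error 0.16, adjusted p = 0.406 in limma). In controls TFRC lay between 10.19 and 10.73 at 5 months and between 9.53 and 10.02 at 2 years, without overlap, a difference of -0.60 (unadjusted p = 3.25e-05 and adjusted p = 0.117 in limma). TFRC was 1 of the 44 without overlap there, against 0.434% of all probe sets. In FASD animals, which overlapped, the age difference of TFRC was -0.12 (unadjusted p = 0.351 and adjusted p = 0.867 in limma), and its interaction was 0.48 (95% interval 0.12 to 0.83, unadjusted p = 0.0107 and adjusted p near 1 in limma). The interaction was not planned for this list. TFRC and SQSTM1 (unadjusted p = 0.0488 in limma) were the 2 of the 44 that passed for it, or 4.55%, against 3% of all probe sets. SEPHS1, related to selenophosphate synthesis, had -0.11 (standard error 0.05), CBR1, a carbonyl reductase, had 0.19 (standard error 0.07) and LANCL1, which binds glutathione, had 0.17 (standard error 0.07). The count for age was 8 without control animal 6 at 2 years, against 10.6% of all probe sets in that fit. None of the 44 passed an adjusted p under 0.05 for alcohol or age in limma.

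Listed markers of cell types were looked for among the probe sets. No other tissue was compared, so this does not test the tissue label. A gene without a probe set of its own symbol here need not be absent from the tissue. Astrocytes (4 of 8 listed genes measured), oligodendrocytes (4 of 9), oligodendrocyte precursors (4 of 6), microglia (5 of 8), neurons at large (4 of 8), inhibitory neurons (3 of 6), endothelium (2 of 5), mural cells (4 of 8) and choroid plexus (3 of 5) were represented, and none of 6 blood genes was. In a whole hippocampus, fewer cells of a type and less RNA per cell cannot be told apart. The mean of the measured precursor markers at 5 months was 6.98 to 7.20 in controls and 7.29 to 7.52 in FASD animals, and at 2 years it was 6.58 to 7.37 in controls and 6.77 to 7.51 in FASD animals. The myelin mean was 10.36 to 10.71 in controls and 10.68 to 11.24 in FASD animals at 5 months, and 10.32 to 10.84 and 10.26 to 10.70 at 2 years. The astrocyte mean was 9.91 to 10.22 and 9.88 to 10.01 at 5 months, and 9.84 to 10.08 and 9.82 to 10.16 at 2 years. The means of precursor and myelin markers were thus higher in FASD animals at 5 months, where the differences of GGCT and NFE2L3 were also seen. At 2 years, where GGCT differed by -0.19, the myelin mean differed by -0.06 and the precursor mean by 0.19. The myelin genes were not alike: over both ages the alcohol difference was 0.30 for UGT8, 0.24 for MAL, 0.15 for MBP and -0.08 for CNP. The part of these markers in the differences of GGCT and NFE2L3 was not tested.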

How the data were processed

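The table deposited by the authors holds log2 intensities from RMA (version not given in the sources used here), a method that corrects background, normalises arrays to a common distribution and summarises each probe set. The authors hybridised 24 arrays, discarded 2 after principal component analysis, and kept annotated probe sets that were detected in enough arrays. The columns of the 2 discarded arrays held no values and were not analysed here. Normalisation to a common distribution cannot show a shift shared by most genes. Genes were named from the platform annotation, which leaves 88 probe sets with several symbols and 2694 with none.

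Group means were fitted to all 11512 probe sets with limma 3.58.1 in R 4.3.3, with empirical Bayes moderation and Benjamini-Hochberg adjustment over all of them. Alcohol is FASD minus control averaged over ages, age is 2 years minus 5 months averaged over exposures, and the interaction is the alcohol difference at 2 years minus that at 5 months. The study's own test, a two-way analysis of variance, was run as an alternative. Counts use unadjusted p under 0.05 and are set beside the share over all probe sets. The 7 comparisons share control or FASD animals. Probe-set correlations used permutation tests with scipy 1.17.1, two-sided. Figures used matplotlib 3.10.9. The number of arrays limits the precision. On simulated data, limma found 48% of 200 alcohol changes of 0.25 and 92.5% of those of 0.5 at an adjusted p under 0.05. The changes had random signs, and the simulated noise was independent between probe sets and between arrays. In the real arrays single animals deviated over many probe sets at once, so these shares need not hold for the real data.

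Genes named were those at an unadjusted p under 0.05, the lowest p of each role and fixed central genes. Members and lists were chosen with earlier results of these data known, those of GGCT included. Other settings were that analysis of variance, robust variances with an intensity trend, centring, quantile normalisation, a block for replicate number, array weights, the upper range of expression (above the median), 1 probe set per symbol and leaving out each array. Leaving out FASD animal 2 and control animal 6 at 5 months together was chosen after seeing the data.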

Additional observations from a re-analysis of the deposited data

Results flagged for a closer look

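In 9 of 188 groups tested, 1 animal lay far from the rest of its group in a member gene, where chance gives about 1 in 20. The genes of this paragraph were named for those values. Among transferases, GSTA4, which detoxifies lipid aldehydes, was 10.01 in FASD animal 2 at 2 years, below the other FASD animals of that age. GSTK1, of mitochondria and peroxisomes, was 9.19 in control animal 6 at 5 months, above the other controls. The mean of 3 choroid plexus markers was 9.25 in that animal, against 7.59 to 7.95 in the other controls of its age and 7.64 to 8.65 in the other groups, and its part in this value was not tested. GSTO1, of the omega class, was 9.32 in FASD animal 2 at 5 months, above the other FASD animals. GSTM4 was 8.83, GSTP1 10.31 and TXNIP 9.48 in FASD animal 6 at 5 months, each below the other 4 animals. The first MGST3 probe set was 8.24 in FASD animal 6 at 2 years, above the rest. NQO2, a quinone reductase, was 9.30 in control animal 3 at 5 months, above the rest. The first PRDX3 probe set was 9.22 in control animal 2 at 2 years, below the rest. FASD animal 6 at 5 months accounts for 3 of the 9 values and was also the FASD animal whose GGCT reached into the control range.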

How the results depend on the processing

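No difference changed direction where it had passed its threshold, and GGCT remained at an unadjusted p under 0.05 for alcohol in every setting, with a difference of -0.27 to -0.22 when each animal was left out. Counts of the 47 at an unadjusted p under 0.05 moved more. For alcohol they were 4 by analysis of variance, after centring, after quantile normalisation and without both doubted arrays, against 8.15%, 8.18%, 8.45% and 8.2% of all probe sets. They were 9 with array weights (14.5% of all probe sets) and 1 in the upper range of expression (7.52%). In that range 35 of the 47 were tested, NFE2L3 not among them. Within 5 months they were 4 after centring, 5 after quantile normalisation, 4 with array weights and 1 in the upper range. The shares of all probe sets were 4.95%, 4.74%, 10.1% and 4.19% in the same order. Within 2 years they were 7 with array weights, or 14.9%, against 10.6% of all probe sets. For age they were 2 without both doubted arrays, against 8.03% of all probe sets. In controls they were 2 by analysis of variance and 2 without both doubted arrays, against 5.4% and 6.32%. In FASD animals they were 1 in the upper range and 1 without both doubted arrays, against 7.7% and 5.42%. For the interaction they were 4 with array weights, or 8.51%, against 6.29% of all probe sets, and 0 in the upper range, against 2.52%. The other pathway genes gave 2 for alcohol after quantile normalisation, 3 with array weights and 2 without both doubted arrays, against 8.45%, 14.5% and 8.2% of all probe sets. The cause of these changes was not tested. Leaving out each animal in turn gave counts of 1 to 10 for alcohol, 3 to 7 for age, 0 to 6 for the interaction, 2 to 4 for alcohol at 5 months, 1 to 9 at 2 years, 1 to 8 for age in controls and 1 to 4 in FASD animals. The shares of all probe sets moved as well. In the same order they ran from 5.99% to 14.6%, 7.93% to 12.4%, 2.2% to 6.56%, 3.17% to 7.29%, 3.43% to 14.5%, 4.47% to 11.7% and 4.93% to 8.77%. For the other pathway genes it gave 1 to 4 for alcohol and 4 to 8 for age. The sign was the same in every setting other than single omissions for 39 of the 47 for alcohol, 36 for age and 38 for the interaction.

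The replicate number does not mark a shared litter or day in the labels, and it is uncertain for FASD animals at 5 months. Deviations of same-numbered animals had a mean correlation of 0.0706 over 30 pairs, from -0.330 to 0.389, and 4 of the 22 animals correlated best with their own number. With the replicate number as a block, 2 of the 47 passed for the interaction and 5 for alcohol at 2 years, against 3.14% and 6.01% of all probe sets. Centring and quantile normalisation gave the interaction of SRXN1 an unadjusted limma p of 0.0814 and 0.0791, array weights gave the age difference of NFE2L1 one of 0.0912, and without both doubted arrays that of SRXN1 had 0.0774. In data simulated with independent noise, 200 probe sets changed by 0.25 up or down for alcohol. Of these, 48% passed an adjusted p under 0.05 in limma. An unadjusted p under 0.05 was passed by 92%. A change in a single probe set alone was not simulated.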
